A study of Mus musculus with 8 samples.

Results

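Of 8 bead arrays of mouse medial prefrontal cortex, 2 carried a raised signal for Prkcd, the gene of protein kinase C delta. They are stressed replicate 1 and unstressed replicate 6, and they are called the high-Prkcd arrays here. They were chosen by that signal: the Prkcd probe ILMN_1245750 read above 9 on the log2 scale in the series value table. The lower of the chosen arrays read 10.10 and the highest of the other 6 read 7.69. The difference between these 2 arrays and the other 6 was therefore fixed by a measured value of the same contrast. It is described without a test.

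The arrays hybridised RNA from bilateral 1 mm punches of male mice aged 10 weeks. In the stressed group, 4 samples came from mice immobilised for 2 hours and sampled 6 days later. In the unstressed group, 4 samples came from mice without immobilisation. Neither strain nor genotype is stated by the labels. Whether every array stands for its own animal is not stated either, and the p-values below therefore cover only sample-to-sample spread, which may be technical. Of 2 deposited tables with the same sample names and different signals, the value table is used unless stated. Which of them holds the labelled arrays could not be settled, so each stressed or unstressed value, and the stress comparison, rests on that table's sample names. Each stress group holds 1 high-Prkcd array and 3 others.

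The medial prefrontal cortex is a sheet of excitatory and inhibitory neurons in layers, and each layer has its own marker genes. It lies above the white matter of the corpus callosum and its forceps, and near the septum, the striatum and the subventricular zone, whose cells use other transcription factors. Zic genes mark septal neurons. Isl1 marks striatal projection neurons and cholinergic neurons of the basal forebrain. Cux2 and Otof mark upper cortical layers, Rspo2 is used in deep layers, and Mbp encodes myelin basic protein of oligodendrocytes. In bulk tissue, fewer cells of a type and less RNA per cell cannot be told apart.

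The promoters of 4 transcription factor genes are shown because these genes stand on opposite sides of the difference: Isl1, Zic1 and Zic4 were higher on the high-Prkcd arrays and Cux2 was lower. Each covers 250 bases before to 50 bases after the gene start in RefSeq, build GRCm38.p6, written 5′ to 3′ on the gene's own strand. Isl1 lies at chr13:116309639-116309938 (minus strand), Zic1 at chr9:91365719-91366018 (minus strand), Zic4 at chr9:91368722-91369021 (plus strand) and Cux2 at chr5:122049802-122050101 (minus strand, the first of 2 starts listed). Capitals mark CCAAT and GGGCGG on either strand, motifs that do not overlap each other in these windows.
Isl1: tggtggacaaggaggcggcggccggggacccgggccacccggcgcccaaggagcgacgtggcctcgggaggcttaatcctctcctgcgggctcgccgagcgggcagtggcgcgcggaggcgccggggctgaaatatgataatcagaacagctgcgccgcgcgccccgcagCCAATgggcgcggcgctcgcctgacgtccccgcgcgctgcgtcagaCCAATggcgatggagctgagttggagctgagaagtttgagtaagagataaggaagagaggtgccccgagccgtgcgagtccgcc
Zic1: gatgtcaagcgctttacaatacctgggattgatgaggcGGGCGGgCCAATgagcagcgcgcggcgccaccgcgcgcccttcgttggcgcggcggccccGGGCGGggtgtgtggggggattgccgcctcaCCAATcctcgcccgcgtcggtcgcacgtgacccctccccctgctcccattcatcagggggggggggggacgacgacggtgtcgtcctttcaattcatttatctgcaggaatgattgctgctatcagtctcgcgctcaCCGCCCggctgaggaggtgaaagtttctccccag
Zic4: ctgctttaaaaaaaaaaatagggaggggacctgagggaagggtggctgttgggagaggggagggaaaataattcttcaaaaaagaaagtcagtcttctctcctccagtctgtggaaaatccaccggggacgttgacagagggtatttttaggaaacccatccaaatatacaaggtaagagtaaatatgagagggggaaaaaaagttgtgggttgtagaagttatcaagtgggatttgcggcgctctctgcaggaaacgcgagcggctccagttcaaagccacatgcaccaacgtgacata
Cux2: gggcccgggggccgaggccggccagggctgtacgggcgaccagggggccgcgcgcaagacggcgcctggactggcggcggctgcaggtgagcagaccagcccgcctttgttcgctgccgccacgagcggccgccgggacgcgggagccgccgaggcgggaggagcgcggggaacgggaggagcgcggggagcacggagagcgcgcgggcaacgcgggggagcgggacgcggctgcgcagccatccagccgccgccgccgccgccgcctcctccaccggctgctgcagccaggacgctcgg
The starts of Zic1 and Zic4 are 3204 bases apart on opposite strands. The Isl1 window held 2 CCAAT matches, the Zic1 window 2 CCAAT and 3 GGGCGG matches, and the Zic4 and Cux2 windows 0 of either. Over 27025 mouse promoters of the same length, 37.9% held CCAAT and 35.9% held GGGCGG. A match describes the letters and is no evidence of a bound factor.

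All 6 regional markers lay outside the range of the other arrays on both high-Prkcd arrays. Prkcd read 10.10 on stressed replicate 1 and 10.30 on unstressed replicate 6. It read 7.67, 7.48 and 7.61 on the other stressed arrays and 7.69, 7.37 and 7.57 on the other unstressed arrays. The gap between the groups was far wider than the spread within the 6 (SD 0.12, n = 6), as the choice of arrays fixed.

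Zic1, a zinc finger transcription factor, read 11.86 and 11.63 on the high-Prkcd arrays, in the order stressed replicate 1 and unstressed replicate 6, which is kept throughout. On the other 6 arrays it read 8.81 to 9.70 (SD 0.38, n = 6), so the difference of means was 2.43, a 5.39-fold higher signal. Mbp read 13.61 and 13.70 against 12 to 12.68, a difference of 1.32 (SD of the 6, 0.24). Both genes were thus higher on both arrays, by amounts that exceeded the spread of the other 6.

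The cortical markers ran the other way. Cux2, a homeodomain factor of upper layers, read 7.85 and 8.04 against 9.15 to 9.80, a difference of -1.39 (SD 0.25, n = 6). Otof, the calcium sensor otoferlin, read 6.54 and 7.20 against 8.37 to 8.85, a difference of -1.73 (SD 0.20, n = 6). Rspo2, an R-spondin that amplifies Wnt signalling, read 6.14 and 7.20 against 8.12 to 8.82, a difference of -1.75 (SD 0.30, n = 6). For Otof and Rspo2 stressed replicate 1 lay further from the others than unstressed replicate 6.

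Mbp has 5 tested probes, and they did not run one way. The brightest 1, used above, and 3 more were higher on the high-Prkcd arrays, by 0.92 to 2.08. The probe ILMN_3011353 read 8.30 and 9.10 against 9.40 to 9.77, a difference of -0.87. The sources used here do not place it in the transcript.

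**Figure D1:**
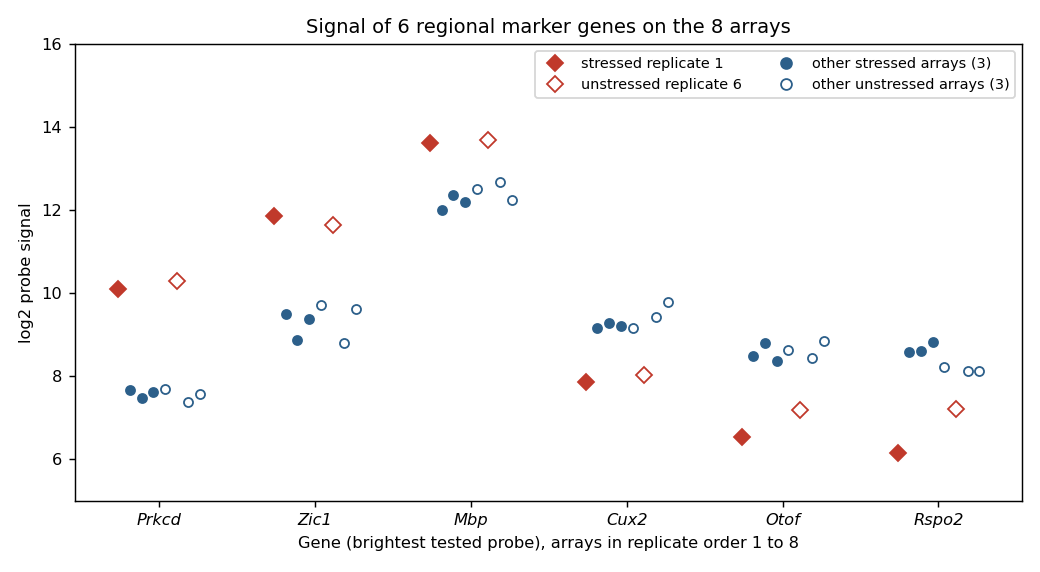
Log2 probe signal (vertical axis) of 6 marker genes (horizontal axis) on each of the 8 arrays of the value table. Diamonds are the high-Prkcd arrays and circles the other 6, filled for stressed and open for unstressed samples. The diamonds of Prkcd, Zic1 and Mbp lie above every circle, and those of Cux2, Otof and Rspo2 lie below.

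The name given to these arrays, off-target subcortical punches, was checked against wider marker lists. A gene was tested where at least 2 arrays gave its probe a detection p below 0.05, which held for 22253 probes and 11657 genes, and each gene is given by its brightest tested probe. Both high-Prkcd arrays lay above all 6 others for 930 genes (7.98%) and below all 6 for 1195 genes (10.3%). Over all genes the median difference was -0.02. The lists were chosen with earlier results of these data known, so their counts describe the arrays only. Each list count that follows is to be read beside the shares over all genes, 7.98% above and 10.3% below.

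Most septal and myelin genes lay above the range of the other arrays, while most of the thalamic list overlapped it. In the septum and Zic list, 8 of 11 tested genes lay above the range of the other arrays and 0 below, with a median difference of 1.10. Prkcd, which chose the arrays, is 1 of these 8, and without it 7 of 10 lay above, with a median of 0.82. In the thalamus list, 3 of 13 lay above and 0 below, with a median of 0.29, and Prkcd was 1 of the 3. Without it 2 of 12 lay above, with a median of 0.23. Cplx1 was 1 of these, at 13.43 and 13.11 against 12.64 to 13.08. Of the 13 thalamic genes, 9 had a higher mean on the high-Prkcd arrays and 4 a lower mean. The thalamic markers Tcf7l2, Rora and Slc17a6, picked out after their values were seen, overlapped the other arrays, with differences of 0.17, 0.29 and 0.48.

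Of 15 genes of pallial excitatory neurons, 4 lay below the range of the other arrays and 0 above, and 13 had a lower mean. Slc17a7, the vesicular glutamate transporter of cortical excitatory neurons, read 12.71 and 12.28 against 12.58 to 13.07. Camk2a read 12.57 and 12.45 against 12.32 to 12.83, and Tbr1, a factor of deep-layer neurons, read 9.63 and 9.73 against 9.42 to 10.26. These 3 genes were also picked after their values were seen. Slc17a7 lay below the other arrays on unstressed replicate 6, and the rest overlapped on both. The lists do not single out 1 region, and the arrays are named by the Prkcd signal that chose them.

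A gene was counted as apart when both high-Prkcd arrays lay outside the range of the other 6 on the same side and the means differed at least 2-fold. This held for 75 genes on the high side (0.643% of genes tested) and 49 on the low side (0.42%). Counted as probes, 111 lay apart on the high side (0.499% of 22253) and 68 on the low side (0.306%). Nothing is read from these shares, since the same contrast chose the arrays. Signals not above background entered the means as measured. For genes undetected on a whole group, taking the lowest detected signal as a floor can give under 2-fold.

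Lbhd2 read 8.99 and 9.38, and 5.51 to 5.88 on the other 6 arrays, where its probe was not above background on any. Its signal was at least 8.44-fold higher, taking the lowest detected signal of each array as the floor. Isl1, a LIM homeodomain factor, read 8.58 and 8.35 against 5.30 to 5.77, again not above background on any of the 6, and was at least 5.14-fold higher.

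Slc10a4, a synaptic vesicle protein of cholinergic and monoaminergic neurons, read 8.47 and 7.5 against 5.31 to 5.74 and was at least 3.68-fold higher. Nmbr, the neuromedin B receptor, read 8.27 and 7.06 against 5.42 to 5.94 and was at least 2.95-fold higher. Both probes were not above background on the other 6 arrays. Both were brighter on stressed replicate 1 than on unstressed replicate 6.

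Several leading genes were measured on the other arrays as well. Plekha2, an adaptor that binds membrane phosphoinositides, read 11.30 and 10.13 against 7.97 to 8.90, a 4.47-fold difference. Fibcd1, a receptor for acetylated sugars also used as a hippocampal marker, read 9.98 and 8.71 against 7.08 to 7.68, a 4.15-fold difference. Ecel1, a neuronal metalloprotease, read 8.95 and 7.32 against 5.78 to 6.71. In these 3 genes stressed replicate 1 again had the higher signal.

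In other leading genes unstressed replicate 6 had the higher signal. Clic6, a chloride channel family member strong in choroid plexus, read 7.71 and 8.64 against 5.59 to 6.92. Rerg, a small Ras-like GTPase, read 8.61 and 9.31 against 6.77 to 7.42. Cacng5, an auxiliary subunit of AMPA receptors, read 8.86 and 9.69 against 7.39 to 7.87. The order of the 2 arrays thus differed from gene to gene.

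Mobp, Dlk1 and Anln read nearly alike on both high-Prkcd arrays. Mobp, a myelin structural protein, read 11.18 and 11.05 against 9.04 to 9.61, a 3.61-fold difference, and 4 further probes of it lay on the same side. Dlk1, a membrane protein related to Notch ligands, read 8.13 and 8.03 against 5.93 to 6.68. Anln, the actin-binding protein anillin, read 8.41 and 8.5 against 6.39 to 7.09.

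The low side was led by Grp, which encodes gastrin-releasing peptide. It read 6.18 and 9.34, and 10.16 to 10.62 on the other 6 arrays, a difference of -2.61. Most of that difference came from stressed replicate 1, which lay close to background, whereas unstressed replicate 6 differed by -0.92 from the mean of the other unstressed arrays. Adcyap1, which encodes the neuropeptide PACAP, had a like order, at 6.14 and 8.01 against 9.09 to 9.71.

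Tnnc1, the slow troponin C, read 6.79 and 7.22 against 8.17 to 10.91, and Cpne9, a calcium-dependent membrane-binding copine, read 7.55 and 8.01 against 8.98 to 10.86. The other 6 arrays themselves spread widely for both, with SDs of 0.90 and 0.67 (n = 6). Unstressed replicate 5 was the lowest of the 6 in both. Hkdc1, a hexokinase-like enzyme, read 5.74 and 6.66 against 7.59 to 9.26. Its probe was not above background on stressed replicate 1.

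Several low genes encode secreted or membrane proteins. Vegfd, a vascular growth factor, read 6.22 and 7.23 against 7.65 to 8.57, and Adamts18, a secreted metalloprotease, read 5.89 and 6.74 against 7.30 to 8.48. Ephb6, an ephrin receptor without kinase activity, read 7.03 and 7.78 against 8.56 to 9.0. Dkkl1, a secreted protein related to Dickkopf, read 6.80 and 6.93 against 7.75 to 8.66. All 4 were lower on stressed replicate 1 than on unstressed replicate 6, and Adamts18 was not above background on the former.

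Ryr1, the ryanodine receptor calcium channel, read 6.73 and 7.46 against 8.39 to 8.72. C2cd4c read 8.52 and 9.21 against 10.16 to 10.47. The other 6 arrays were tight for both (SD 0.11 each, n = 6), and the difference was -1.46 and -1.45. The probes annotated as Trbv13-2 and as the pseudogene Pisd-ps3 also lay apart, with differences of -2.09 and -1.74, and the latter may share sequence with its parent gene. The Trbv13-2 probe was not above background on stressed replicate 1.

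**Figure D2:**
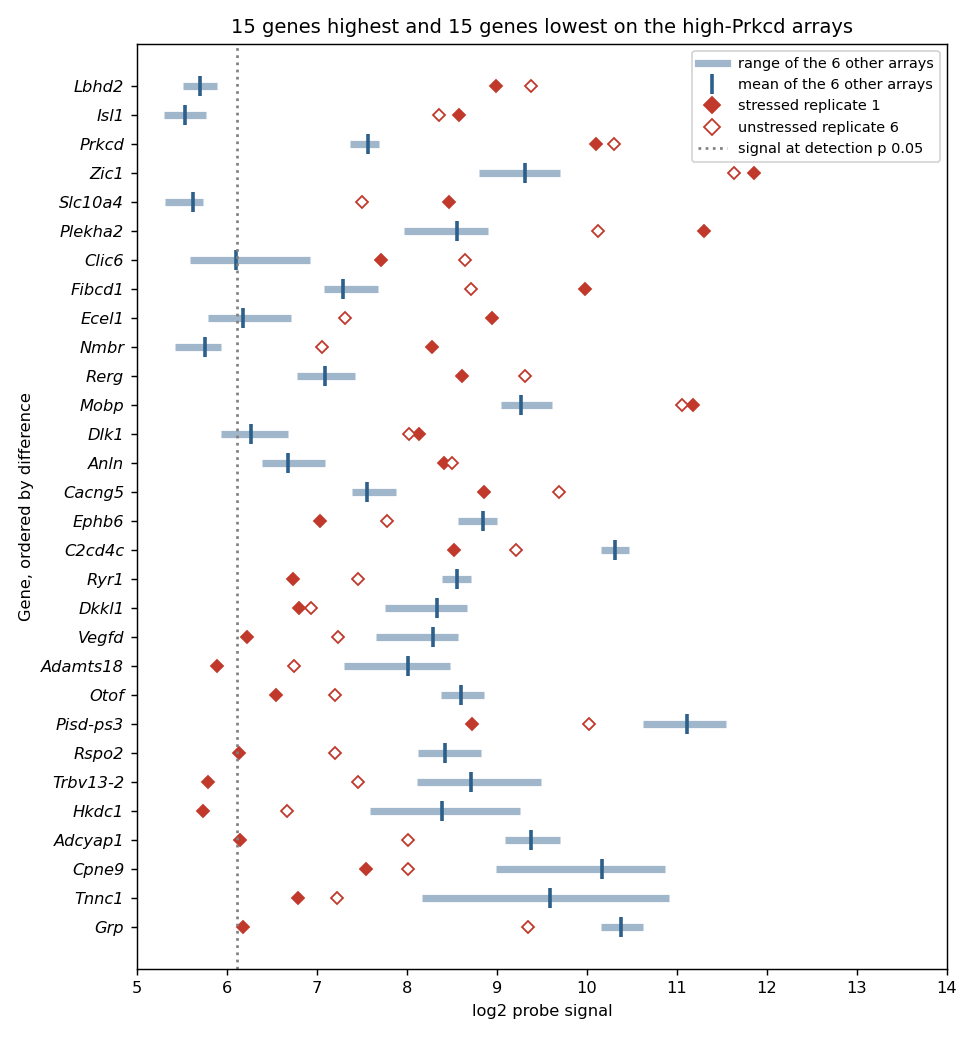
Log2 probe signal (horizontal axis) of the 15 genes furthest higher and the 15 furthest lower on the high-Prkcd arrays (vertical axis), with bars for the range and ticks for the mean of the other 6 arrays. The dotted line is the signal at a detection p of 0.05. Stressed replicate 1 (filled diamonds) lies further out than unstressed replicate 6 (open diamonds) in all of the 15 low genes.

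The arrays were compared gene by gene for which lay further out. Of the 49 low genes, 46 were further out on stressed replicate 1 and 3 on unstressed replicate 6. Of the 75 high genes, the counts were 45 and 30. The median gap between the 2 arrays was 0.52 over the low genes and 0.33 over the high genes. These counts and gaps were not taken over all genes tested, so they describe the genes apart only.

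Among the other 6 arrays, unstressed replicate 5 was most often the nearest to the high-Prkcd arrays. It was the nearest for 27 of the 75 high genes and 28 of the 49 low genes. Unstressed replicate 7 was the nearest for 25 of the high genes and 9 of the low genes. The nearest array was not counted over all genes tested, so nothing is read from these counts. In all, 55 of the 11657 genes tested were detected on both high-Prkcd arrays and on 0 of the other 6. Another 26 were detected on all 6 others and on 0 high-Prkcd arrays. The 55 passed the filter of at least 2 arrays only through the high-Prkcd arrays. The 26 needed detection on 6 arrays, so the counts are not compared. Of the 55 and the 26, 10 and 7 were also apart at 2-fold by measured signal. With the floor in place of signals below background, some fell under 2-fold, such as Qrfprl (1.48) and Mfsd13b (1.66).

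Myelin genes formed the most complete high group. Of 18 tested genes of myelinating oligodendrocytes, 17 lay above the range of the other arrays, 13 of them at least 2-fold, and 0 below. Their median difference was 1.30, against -0.02 over all genes. Mobp and Trf, the iron carrier transferrin, were the furthest out. Trf read 10.86 and 10.65 against 9.0 to 9.23.

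The median of the myelin list was 1.38 on stressed replicate 1 against the other stressed arrays and 1.24 on unstressed replicate 6 against the other unstressed arrays. Its summed linear signal was 31508 to 32612 on the high-Prkcd arrays and 10398 to 16766 on the other 6. The gap junction gene Gjb1 was the 1 member that overlapped. Oligodendrocyte precursor genes moved less, with 3 of 10 above the range, 0 below and a median of 0.20. Bmp4 and Lhfpl3 were the furthest of these, at 0.55 and 0.53.

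Among the Zic genes, Zic2 read 7.93 and 8.44 against 6.19 to 6.68, and Zic4 read 8.80 and 8.66 against 6.64 to 7.55. Together with Zic1 these were all the tested Zic genes. The septal list also held Nts, which encodes neurotensin, at 8.40 and 6.81 against 5.95 to 6.38, and the cation channel gene Trpc4, at 8.28 and 8.55 against 7.07 to 7.56. Nts was much brighter on stressed replicate 1, whereas Trpc4 was not. The septal members Crhr2, Meis2 and Cbln2 overlapped the other arrays.

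Striatal genes were split. Of 25 tested, 11 lay above the range, 1 below and 13 overlapped, with a median difference of 0.40. After Isl1, the furthest out was Penk, which encodes enkephalin, at 8.31 and 8.04 against 6.48 to 7.39. In all, 5 were apart at 2-fold, namely Isl1, Penk, the dopamine signalling phosphatase inhibitor Ppp1r1b, the tachykinin gene Tac1 and the G protein gene Gnal. Of the dopamine receptor genes, picked after their values were seen, Drd2 read 6.97 and 7.78 against 6.30 to 6.96, and Drd1 read 7.97 and 8.73 against 8.2 to 9.04 and overlapped. Foxp1, a forkhead factor shared with cortex, read 8.03 and 8.32 against 8.81 to 9.06 and was the 1 below.

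Cholinergic genes of the basal forebrain were dim but mostly high, with 4 of 6 above the range, 0 below and a median of 0.51. Chat, the acetylcholine-synthesising enzyme, read 6.89 and 6.25 against 5.85 to 6.17, values close to the detection limit of 6.11. After Isl1 it was the furthest out in this list. Lhx8 and Ache overlapped.

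Neuroblast and subventricular genes gave 6 of 8 above the range and 1 below, with a median of 0.78. Igfbpl1, a marker of migrating neuroblasts, read 6.06 and 7.82 against 5.31 to 5.63, and Sp8, a zinc finger factor of olfactory interneuron precursors, read 7.49 and 7.75 against 5.95 to 6.43. Igfbpl1 was thus raised mostly on unstressed replicate 6. Its probe was not above background on the other 6 arrays, so its mean signal was at least 1.78-fold higher. Dcx, the microtubule protein doublecortin, was the 1 below, at 7.69 and 8.03 against 8.29 to 8.64.

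The cortical lists were low in part. Of 15 upper-layer genes, 6 lay below the range and 1 above, with a median of -0.43, and Otof and Dkkl1 were the furthest down. The 1 above was Whrn, a scaffold protein gene, at 9.44 and 10.05 against 8.84 to 9.33. Of 15 deep-layer genes, 3 lay below and 3 above, with a median of -0.08.

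In the deep-layer list Rspo2 and Deptor, an inhibitor of mTOR, were the furthest down, and Deptor read 7.19 and 7.48 against 7.92 to 8.46. Ccn2, a matrix protein that marks the deepest layer, was the furthest up, at 10.81 and 10.84 against 9.48 to 9.89. Nr4a2, a nuclear receptor also used by deep-layer neurons, read 8.40 and 7.99 against 7.19 to 7.70. Deep-layer members therefore lay on both sides.

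In the pallial excitatory list the furthest down was the transcriptional regulator Lmo4, at 12.82 and 13.04 against 13.60 to 14.16. Mef2c, an activity-dependent transcription factor, followed at 12.94 and 12.86 against 13.18 to 13.58. The summed linear signal of this list was 42895 to 46041 on the high-Prkcd arrays and 55003 to 63925 on the other 6. Such a sum is weighted to the brightest genes, Lmo4 and Mef2c among them. The median difference of the list was only -0.13, 11 of its 15 genes overlapped and 0 were apart at 2-fold.

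Of 18 genes of inhibitory neurons, 4 lay above the range, 3 below and 11 overlapped, with a median of 0.05. Gad2 and Slc32a1, which make GABA and load it into vesicles, read 12.38 and 12.03 against 10.75 to 11.40, and 12.45 and 12.31 against 11.26 to 11.60. The peptide genes Cck and Vip were lower, each by 0.58.

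Among glia and vessels, 7 of 20 astrocyte genes lay above the range and 0 below, with a median of 0.27. Gfap, the intermediate filament of astrocytes, read 11.20 and 10.43 against 9.02 to 10.26, and the water channel gene Aqp4 read 11.55 and 11.15 against 10.23 to 11.01. Of 15 microglial and 14 endothelial genes, 0 lay outside the range on either side. With 7.98% of all genes above and 10.3% below, lists of this size would hold few such genes in any case. Of 17 mural and meningeal genes, 3 lay above and 0 below.

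Choroid plexus genes mostly overlapped, with 2 of 9 above the range, 0 below and a median of 0.06. The 2 were Clic6 and Otx2, a homeodomain factor, which read 6.76 and 6.67 against 5.37 to 5.98. Otx2 was not above background on the other 6 arrays, so its mean signal was at least 1.52-fold higher. Of 9 blood genes, 1 lay below and 0 above, beside 10.3% and 7.98% of all genes, and nothing is read from this count. Of 8 hippocampal genes, 3 lay above and 1 below, led by Fibcd1 and Spink8, and of 6 olfactory bulb genes 1 lay on each side.

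**Figure D3:**
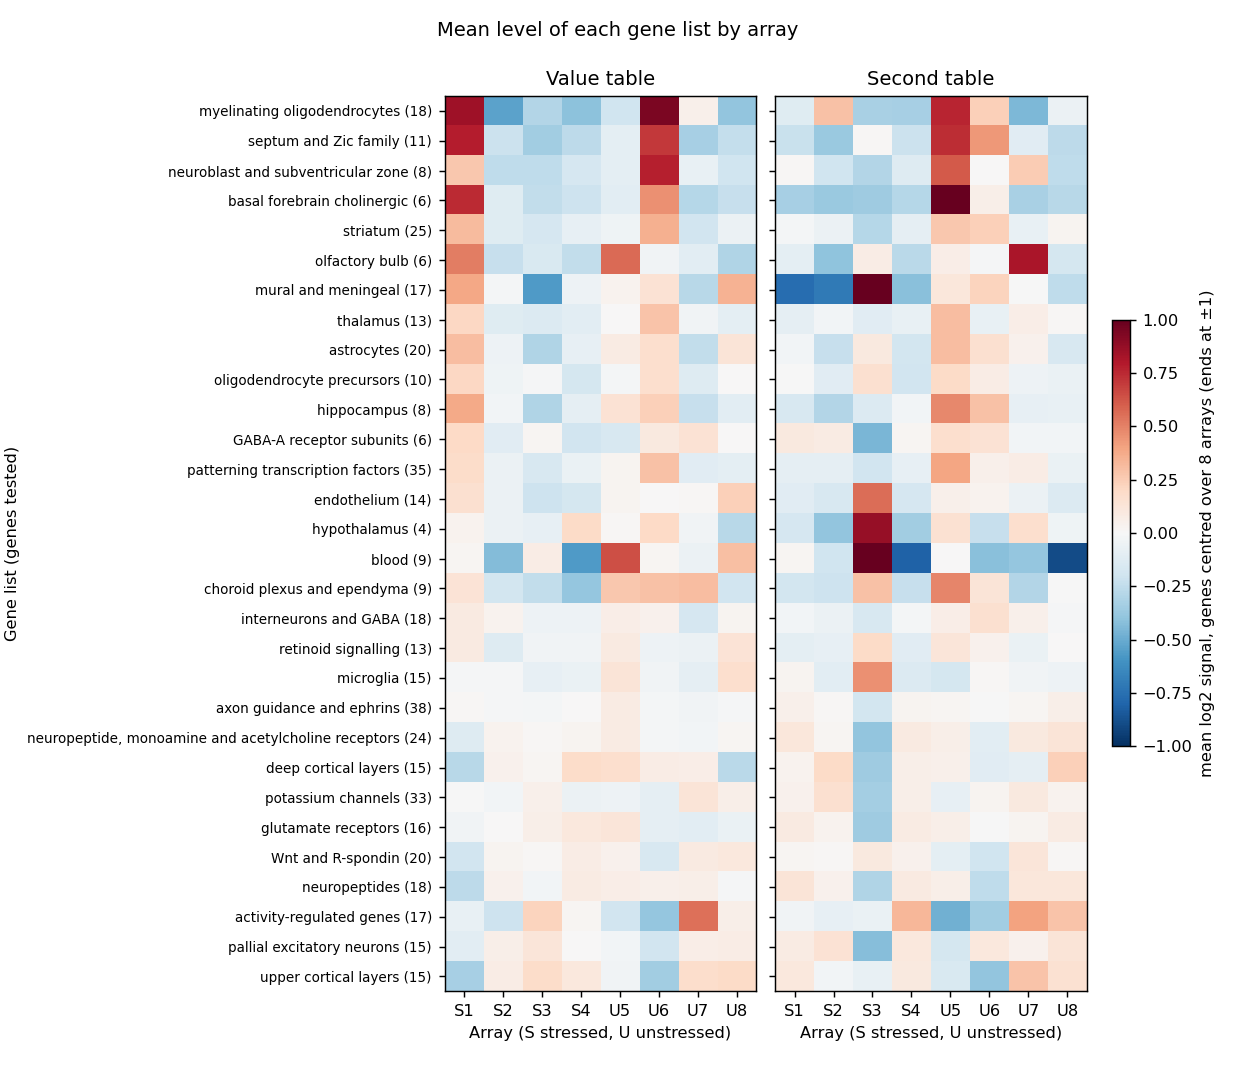
Mean log2 signal of each gene list (vertical axis, number of genes tested in brackets) on each array (horizontal axis), with every gene centred on its mean over the 8 arrays of its own table. In the value table the myelin list stands at 0.85 and 0.94 on the high-Prkcd arrays (S1 and U6) and between -0.54 and 0.05 on the other 6. In the second table it stands at 0.76 on U5, 0.29 on S2 and 0.24 on U6, and between -0.45 and -0.06 on the rest. There S3, high in Prkcd, is at -0.33, and S2 is not high in Prkcd.

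Signalling genes followed no single direction. Of 18 neuropeptide genes, 4 lay above and 4 below, with Nts and Penk furthest up and Grp and Adcyap1 furthest down. Of 24 receptors for peptides, monoamines and acetylcholine, 3 lay above and 5 below. Over all genes the shares were 7.98% above and 10.3% below. Cckbr, the receptor of the cholecystokinin peptide, read 10.84 and 10.71 against 11.41 to 11.89, and Crhr1, a corticotropin-releasing hormone receptor, read 7.16 and 7.31 against 7.82 to 8.18.

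Of 33 potassium channel genes, 3 lay above, 3 below and 27 overlapped, and of 38 axon guidance genes 3 lay above and 4 below, shares near those of all genes (7.98% above and 10.3% below). Kcna1, a channel of myelinated axons, read 7.14 and 7.18 against 5.78 to 6.61, and Kcnh3, a forebrain channel, read 9.39 and 9.35 against 10.11 to 10.36. The axon guidance genes furthest out were Sema5a, at a difference of 1.34, and Sema3e, at -0.83. Of 20 Wnt and R-spondin genes, 2 lay above and 5 below. Rspo3 and Rspo2 stood on opposite sides, at 0.56 and -1.75.

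Of 17 activity-regulated genes, 1 lay above, 3 below and 13 overlapped, with a median of -0.13. Over all genes 7.98% lay above and 10.3% below. Junb read 9.0 and 9.13 against 9.44 to 10.52, and Dusp1, a phosphatase induced by activity, read 9.64 and 9.83 against 10.13 to 11.23. These genes varied among the other 6 arrays too, where the mean centred level of the list ran from -0.21 to 0.55. Ppm1f, the phosphatase named in the study's title, overlapped, with a difference of 0.02.

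Each high-Prkcd array was also set against the 3 other arrays of its own stress group, so that these comparisons share no array. At least 2-fold higher were 209 probes (0.939%) on stressed replicate 1 and 113 (0.508%) on unstressed replicate 6. Shared between them were 75, which is 35.9% of the first list and 66.4% of the second. At least 2-fold lower were 124 (0.557%) and 74 (0.333%), with 41 shared, or 33.1% and 55.4%.

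Over all 22253 probes the differences on both arrays had a Pearson r of 0.519 and a Spearman rho of 0.384. This is a description across probes, which are not independent and include those that chose the arrays. Lbhd2 differed by 3.36 and 3.60, Isl1 by 2.95 and 2.91, and Prkcd by 2.51 and 2.76. Grp differed by -4.30 and -0.92, the least even of the leading genes.

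**Figure D4:**
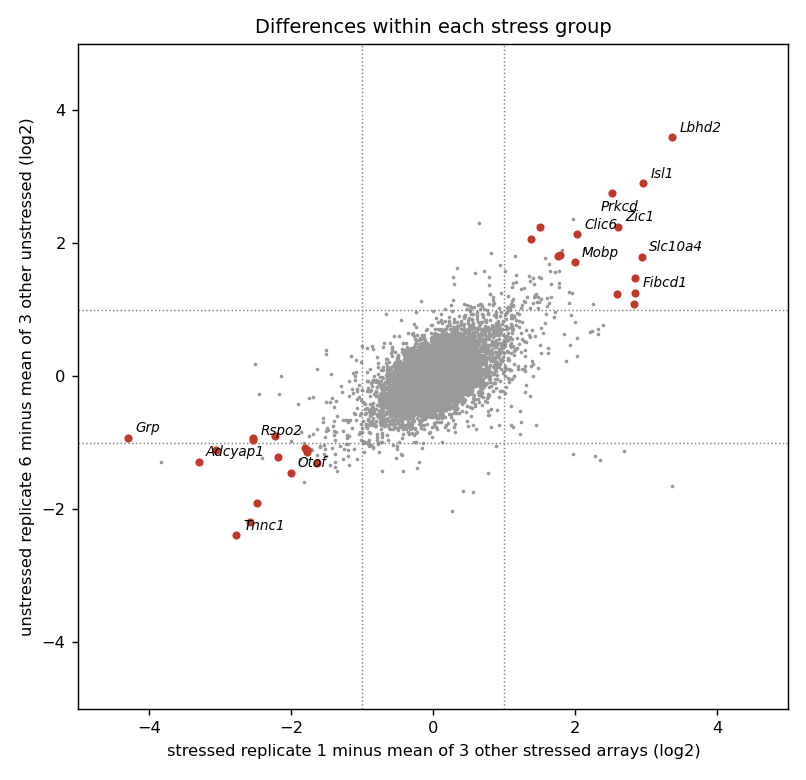
Difference in log2 signal of each tested probe on stressed replicate 1 from the mean of the 3 other stressed arrays (horizontal axis) and on unstressed replicate 6 from the mean of the 3 other unstressed arrays (vertical axis). Red points are the 30 leading genes and dotted lines mark 2-fold. Lbhd2, Isl1 and Prkcd lie high on both axes, and Grp lies at -4.30 on the horizontal and -0.92 on the vertical axis.

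By Pearson r over the 8 arrays, the genes most like Prkcd were Lbhd2 (0.995), Isl1 (0.993), Ccn2 (0.982), Qrfprl (0.980) and Trf (0.980). These values rest mainly on the gap between the 2 arrays and the other 6. Qrfprl read 6.52 and 6.83 and was not above background on the other 6 arrays, for which its signal was at least 1.48-fold higher.

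A second deposited table gives signals under the same 8 sample names, but with other values. The second table's signals were not used to choose the high-Prkcd arrays, and the sources used here do not say whether they come from the same animals. In this table stressed replicate 3 stood apart from the rest, with r of 0.952 to 0.958 against 0.989 to 0.994 among the other 7. Levels are compared within this table only.

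In the second table Prkcd was high on other samples. It read 9.42 on stressed replicate 3, 9.80 on unstressed replicate 5 and 8.58 on unstressed replicate 6. On the other 5 arrays it read 7.29 to 7.72, stressed replicate 1 included, at 7.57. These levels form separate clusters of under 6 arrays, so no correlation with other genes is given.

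Unstressed replicate 5 of the second table carried the high genes most fully. Of the 111 probes apart on the high side, it was among the 2 highest of its table for 95 (85.6%), against 27.5% of all probes. Unstressed replicate 6 was among the 2 highest for 73 (65.8%, against 26.7%). Stressed replicate 3, although high in Prkcd, was among them for 23 (20.7%, against 23.9%), a share near the background.

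The low genes were lowest on unstressed replicate 6 of the second table. Of the 68 probes apart on the low side, it was among the 2 lowest for 67 (98.5%, against 22.4% of all probes). Unstressed replicate 5 was among the 2 lowest for 43 (63.2%, against 24.6%). Stressed replicate 3 was among them for 25 (36.8%), below its share over all probes of 52.2%.

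The leading genes show this sample by sample. Isl1 in the second table read 8.82 on unstressed replicate 5, 7.19 on unstressed replicate 6 and 5.43 on stressed replicate 3, with the other 5 at 5.29 to 5.37. Zic1 read 11.70, 10.99 and 10.13 on these arrays and 8.56 to 9.91 on the other 5. Otof read 7.37, 6.2 and 8.2, with 7.42 to 8.83 on the other 5. The myelin gene Mobp read 10.72, 10.31 and 9.62, with 9.03 to 10.55 on the other 5, of which stressed replicate 2 was the highest. Zic1 was thus highest on the 3 arrays that were high in Prkcd, whereas Isl1 was raised on 2 of them.

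**Figure D5:**
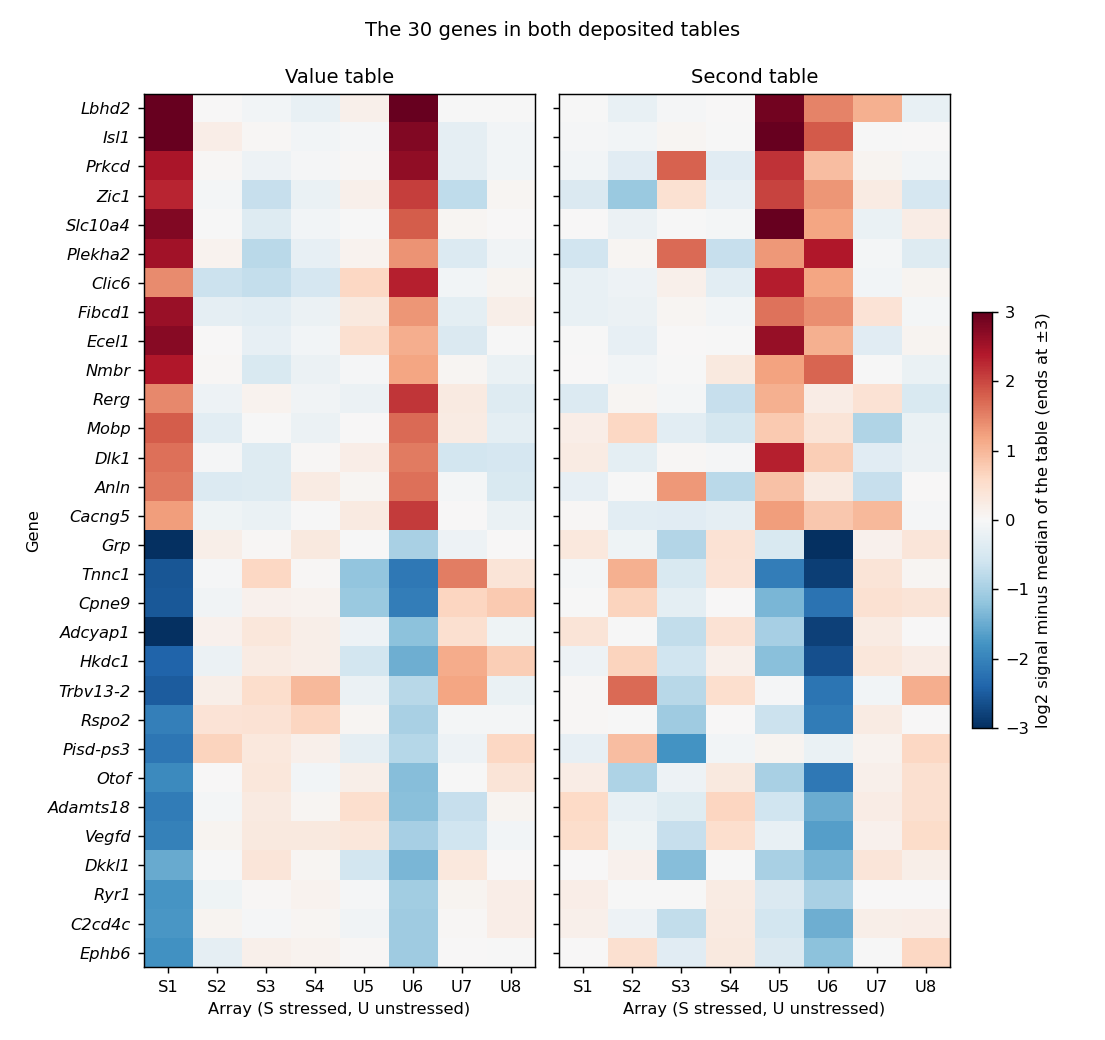
Log2 signal of the 30 leading genes (vertical axis) on each array (horizontal axis; S stressed, U unstressed), minus the gene's median over the 8 arrays of the same table. High genes are red and low genes blue on S1 and U6 of the value table. In the second table U5 and U6 show most of these colours, with exceptions such as Pisd-ps3 on U5. S3 of the second table is red for Prkcd but not for Isl1.

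Because each stress group holds 1 high-Prkcd array, the stress comparison was fitted with and without them. On all 8 arrays of the value table, limma called 0 of 22253 probes at an adjusted p under 0.05, with 2291 (10.3%) at an unadjusted p under 0.05 and a smallest adjusted p of 0.162. With the high-Prkcd arrays as a block it called 1 (0.00449%), and without them 1. Unadjusted, these fits had 2854 (12.8%) and 2463 (11.1%) probes.

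Standard errors of the 179 probes that lay apart were smaller in both of these fits, as the choice of these probes fixed. Their median standard error of the stress difference was 0.386 on all 8 arrays, 0.144 with the block and 0.143 without the high-Prkcd arrays. Over all probes it was 0.11, 0.10 and 0.11. At an unadjusted p under 0.05 were 1, 26 and 23 of the 179 in these fits (0.559%, 14.5% and 12.8%), against 10.3%, 12.8% and 11.1% of all probes, and nothing is read from this change.

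The called probe was ILMN_1251575 of Nwd2, an NTPase of the NACHT and WD repeat family. This probe was itself 1 of the 179 that lay apart, whose smaller standard errors were fixed by their choice. Its SE was 0.321 on all 8 arrays, so its adjusted p-values below are not independent of the choice of arrays. It read 8.73, 8.81 and 8.85 on stressed replicates 2 to 4, and 7.75, 7.53 and 7.80 on unstressed replicates 5, 7 and 8. On the high-Prkcd arrays it read 7.40 and 6.81. The stressed samples were thus higher in both sets, by 0.98 (SE 0.111, limma adjusted p 0.0492) with the block and by 1.11 (adjusted p 0.0291) without those arrays. On all 8 arrays without a block the limma adjusted p was 0.370.

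In the second table the same Nwd2 probe read 8.56 to 8.84 on the 4 stressed arrays. It read 7.41 and 7.28 on unstressed replicates 5 and 6, and 8.73 and 8.58 on unstressed replicates 7 and 8, inside the range of the stressed arrays. The low samples there were those among the 2 lowest for the most low-side probes.

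Nwd2's brighter probe ILMN_2621169 differed by 0.18 (limma adjusted p 0.487 with the block), so the call rests on 1 probe of the gene. Ppm1f read 10.66 to 10.70 on the stressed arrays and 10.75 to 11.04 on the unstressed arrays. It differed by -0.28 (SE 0.0888, limma adjusted p 0.370) on all 8 arrays, with an adjusted p of 0.263 with the block and 0.425 without the high-Prkcd arrays. The groups did not overlap, but the difference did not pass the test in any of these fits. In the second table the Ppm1f groups overlapped and differed by -0.090 (limma adjusted p 0.980).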

How the data were processed

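RNA from 8 punches was labelled as biotinylated cRNA and hybridised to Illumina bead arrays of 45281 probes, per the labels. The authors deposited 2 tables of probe intensity on a linear scale, the value table and a second table that also holds a detection p-value per probe and array. With probes ordered by signal, that p rose at 0% of steps in the value table and at 33.4% to 36.8% of steps in the second table beside it, so it was used as the detection p of the value table. The value table's columns share 1 distribution, so it was not normalized again; the normalization, scanner software and probe mapping are not given in the sources used here. Intensities were converted to log2. Of the probes, 34885 had 1 gene symbol in the platform annotation, 18 several and 10378 none, and no symbol changed against RefSeq. On each array 20012 to 21038 probes were detected (44.2% to 46.5%); the number of arrays limits the precision. A probe was tested where at least 2 arrays gave it a detection p below 0.05. The arrays, markers and gene lists were chosen with earlier results of these data known.

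Genes named are the 6 markers, the 15 furthest higher and lower among annotated genes apart, up to 2 furthest members per list and side, the 5 most like Prkcd, Ppm1f and the called probes. All other genes named were picked after their values were seen. The stress comparison used limma 3.58.1 (lmFit, eBayes, Benjamini-Hochberg) in R 4.3.3, tested on simulated data first. Python 3.11.15, numpy 2.4.6, pandas 2.3.3 and scipy 1.17.1 did the rest. Where a probe was not above background on a whole group, the floor was the lowest detected signal of each array, 6.05 to 6.13. Alternatives covered the detection filter, scaling, fold, probe choice, each array left out and the second table.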

Additional observations from a re-analysis of the deposited data

Results flagged for a closer look

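Within each group of 4 arrays, the gap between the highest or lowest array and its nearest neighbour was divided by the group's range, and gaps above Dixon's critical value for 4 samples are given here. For a series not chosen by its values, chance alone gives such a gap in about 1 in 20 groups. Of 126 series of 4 values, 37 passed, and in 34 the outlying array was a high-Prkcd array. Prkcd chose these arrays, and most of the other genes were chosen on their values, which favours such gaps. The series also share genes and arrays. The count of 37 is therefore not set against the chance rate.

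Stressed replicate 1 stood high for Prkcd (0.926), Lbhd2 (0.935), Isl1 (0.91), Slc10a4 (0.885), Clic6 (0.898), Fibcd1 (0.958), Ecel1 (0.914), Rerg (0.831), Mobp (0.855) and Cacng5 (0.863). It stood low for Cux2 (0.918), Rspo2 (0.916), Grp (0.94), Cpne9 (0.912), Adcyap1 (0.942), Hkdc1 (0.842), Adamts18 (0.853), Vegfd (0.901), Ryr1 (0.884) and C2cd4c (0.932). Unstressed replicate 6 stood high for Prkcd (0.89), Lbhd2 (0.954), Isl1 (0.923) and Slc10a4 (0.972) and low for Rspo2 (0.892), Grp (0.833) and Ephb6 (0.955).

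In mean list levels, stressed replicate 1 stood high for thalamus (0.924), septum and Zic family (0.883), basal forebrain cholinergic (0.878), olfactory bulb (0.877) and neuroblast and subventricular zone (0.835), and low for neuropeptide, monoamine and acetylcholine receptors (0.883). Prkcd, which chose the arrays, is a member of the thalamus and septum lists and entered their means. Nothing is therefore read from those gaps. Unstressed replicate 6 stood high for neuroblast and subventricular zone (0.869). The 3 gaps on other arrays were in the lists interneurons and GABA (0.834), low on unstressed replicate 7, endothelium (0.901), high on unstressed replicate 8, and choroid plexus and ependyma (0.918), low on unstressed replicate 8.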

How the results depend on the processing

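No paired analysis was possible because the replicate numbers 1 to 8 do not repeat between the groups. The counts of 111 probes higher and 68 lower stayed within 1.5 times under the other detection filters, median centring, renormalization and cyclic loess. They were 65 and 44 as gene means, 385 and 257 at 1.5-fold and 11 and 7 at 4-fold, settings that change what is counted. With 1 high-Prkcd array against 3 others, they were 209 and 124 on the stressed arrays alone. On the unstressed arrays alone they were 113 and 69. The counts thus moved beyond 1.5 times in the stressed group and not in the unstressed group. Leaving out 1 array gave 107 to 171 higher and 68 to 115 lower, with 171 and 115 without unstressed replicate 6. In the second table with the same sample labels they were 0 and 2, and the probes shared within both stress groups fell from 116 to 1. With the Prkcd rule applied to the second table, a choice made after seeing the data, they were 122 and 6. Of 448 differences of single genes under the alternatives, 3 reversed, all in the second table with the same labels: Prkcd (-0.11), Rerg (-0.15) and Anln (-0.098). For each of these genes both high-Prkcd arrays lay outside the range of the other 6. Leaving out 1 array or using 1 stress group could therefore not reverse a difference, and nothing is read from how few reversed. With 1 array left out, 38 values moved by at least the SD of the other 6 arrays, and 76 did so under the remaining settings. The cause of the change between the tables was not tested. The stress comparison had 1 call with the high-Prkcd arrays as a block, 1 without them and 0 under every other setting run.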
